A study of Homo sapiens with 12 samples.

Results

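The core autophagy machinery was described through 42 genes of human Sk-hep1 cells, an established cell line. The list held 2 scramblases of the endoplasmic reticulum, 5 genes of the ULK kinase complex, 6 of the phosphatidylinositol 3-kinase complex, 7 of phagophore growth, 10 of ATG8 conjugation, 5 ATG8 proteins, 5 cargo receptors and 2 genes of fusion with the lysosome. Each gene was represented by 1 probe set, a group of short array probes read as 1 value. Among the probe sets annotated to that symbol alone, the one with the highest mean over the 12 arrays was taken, and it was kept if it reached log2 4 on at least 3 arrays. All 42 genes had such a probe set and passed this floor, among 13130 genes tested in all. The member nearest the floor, the protease gene ATG4D, lay between 4.86 and 5.86 on the 12 arrays, and no member lay below it.

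The labels describe Sk-hep1 as a cell line of endothelial type from an adenocarcinoma in liver ascites. Growth medium (GM) had DMEM as its base and high-fat medium (HFM) had DMEM/F12, and cells stayed in either for 12 or 24 hours, with 3 arrays for each of the 4 groups. The sources used here do not name the fat in HFM, and since the basal medium differed as well, the fat and the basal medium cannot be told apart. Nothing in the labels makes the replicates separate cultures, and each p-value therefore covers the spread of these arrays alone, which may be technical. The study asked how a high-fat environment changes the transcriptome, and each level below is a deposited log2 value.

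Of 8 endothelial markers, CDH5, VWF, KDR, TEK and TIE1 were below the floor, PECAM1 and ICAM2 lay near it, and ROBO4 had group means of 6.12 to 7.43. The defining hepatocyte gene ALB, the epithelial genes EPCAM and CDH1 and the leukocyte gene PTPRC were below the floor, while the keratins KRT8, KRT18 and KRT19 lay between 10.70 and 13.72. Of the 6 hepatocyte, 5 epithelial and 5 leukocyte markers with a probe set, 3 of each list passed. The hepatocyte ones were TTR (group means 5.31 to 5.69), SERPINA1 (4.38 to 4.99) and TF (4.04 to 4.35), and the epithelial ones the keratins. The leukocyte ones were CD79A (5.91 to 6.31), CORO1A (4.03 to 5.61) and CD14 (4.15 to 5.50). Each list was summed on levels before the log, so its highest gene weighs most: ROBO4, TTR, KRT18 or CD79A. The endothelial sum mainly followed ROBO4, whose HFM means were 6.41 (GM 7.43) at 12 hours and 6.12 (GM 6.90) at 24 hours. The other endothelial markers also had lower HFM means at 12 hours. At 24 hours CDH5, PECAM1 and ICAM2 were lower, but VWF, KDR, TEK and TIE1, all below the floor, were higher. The summed endothelial markers lay at 7.99 to 8.07 (log2) in GM and 7.11 to 7.31 in HFM at 12 hours, and at 7.54 to 7.68 and 6.98 to 7.20 at 24 hours. At 12 hours the summed leukocyte markers lay at 7.53 to 7.65 in GM and 7.06 to 7.18 in HFM, the hepatocyte markers at 6.96 to 7.0 and 6.72 to 6.84, and the epithelial markers at 14.47 to 14.52 and 14.22 to 14.39. At 24 hours the leukocyte sums were 6.98 to 7.06 and 6.82 to 6.94, the hepatocyte sums 6.59 to 6.67 and 6.83 to 6.88, and the epithelial sums 14.12 to 14.19 and 13.95 to 14.03. HFM replicate 1 at 12 hours stood apart from its group, with a mean r across genes of 0.9915 against at least 0.9951 on the other 11 arrays, and it shared the higher hybridisation controls of the 3 GM arrays at 12 hours. For ACTB the 3' probe set exceeded the 5' one, a measure of RNA integrity, by 1.58 ± 0.06 (SD, n = 3) in HFM and 1.07 ± 0.05 in GM at 24 hours, and by 0.84 ± 0.13 and 0.89 ± 0.03 at 12 hours. The ACTB difference was higher in HFM than in GM on all arrays at 24 hours and overlapped between media at 12 hours. Its part and that of the marker levels in the results below was not tested. The hybridisation controls of the media overlapped at 24 hours, but at 12 hours lay at 9.84 to 9.88 in GM and 9.60 to 9.81 in HFM. Their class was fitted as a term (the control term), with results given beside some of the genes it touched. Only HFM at 12 hours held arrays of both classes. A 12-hour change with this term therefore sets HFM replicate 1 alone against GM, and the 12-hour calls and counts with it rest on that array.

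Macroautophagy wraps a portion of cytoplasm in a double membrane and delivers it to the lysosome. The ULK kinase complex starts the process, and the class III phosphatidylinositol 3-kinase complex marks the site with a lipid that WIPI proteins bind. Lipid transfer by ATG2 and scrambling by ATG9, VMP1 and TMEM41B let the membrane grow, while a ubiquitin-like conjugation system attaches ATG8 proteins, LC3 and GABARAP, to it. Cargo receptors bind both the cargo and the ATG8 proteins, and syntaxin and tether proteins then join the closed vesicle to the lysosome. In liver cells the same pathway also takes up lipid droplets. Much of its control acts on proteins, and a transcript level does not measure autophagic flux.

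Promoter windows of 300 bases around the start given in the RefSeq promoter table (GRCh38.p14) were found for 35 of the 42 members. The windows of ATG5, AMBRA1, ATG101, ATG4A and BECN1 lay wholly inside the annotated gene. For these genes the sequence at the outermost gene start was therefore not searched. After the levels had been seen, 4 motifs were searched on both strands: the E-box CACGTG, the longer TCACGTG of the lysosomal gene network bound by TFEB, which contains the E-box, the stress motif TGATGCAA of C/EBP-ATF dimers and the FOXO motif GTAAACA. The E-box stood in 7.26% of 35116 promoters of this length, and among members in those of ATG14 and ATG3 only, where it was part of TCACGTG, a motif in 3.71% of promoters. GTAAACA was found in CALCOCO2 (3.42% of promoters), and TGATGCAA in no member (0.866% of promoters). The windows of ATG14 and ATG3 are printed because they hold the E-box, in capitals with the base that extends it, and that of VMP1 because this gene had the largest change and holds none of the 4 motifs. The E-box began 21 bases before the start of ATG14, and 18 bases before and 6 bases into ATG3, counted on the gene's strand. At 24 hours in HFM the change was 0.42 for ATG14 and -0.17 for ATG3, of which the second became 0.01 after centring and was called under neither scaling, and at 12 hours ATG3 rose while ATG14 was not called.
ATG14, chr14:55411781-55412080, minus strand: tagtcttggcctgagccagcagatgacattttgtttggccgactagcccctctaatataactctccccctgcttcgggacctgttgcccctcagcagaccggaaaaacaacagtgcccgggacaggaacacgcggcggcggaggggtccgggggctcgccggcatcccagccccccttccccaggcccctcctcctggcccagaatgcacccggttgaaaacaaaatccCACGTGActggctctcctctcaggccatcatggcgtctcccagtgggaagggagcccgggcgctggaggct
ATG3, chr3:112561913-112562212, minus strand: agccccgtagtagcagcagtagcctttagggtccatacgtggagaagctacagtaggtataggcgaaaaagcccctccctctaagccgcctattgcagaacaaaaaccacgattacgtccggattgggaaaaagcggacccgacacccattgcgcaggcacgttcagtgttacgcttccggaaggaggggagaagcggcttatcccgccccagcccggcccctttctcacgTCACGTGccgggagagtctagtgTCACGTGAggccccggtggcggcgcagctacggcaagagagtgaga
VMP1, chr17:59707404-59707703, plus strand: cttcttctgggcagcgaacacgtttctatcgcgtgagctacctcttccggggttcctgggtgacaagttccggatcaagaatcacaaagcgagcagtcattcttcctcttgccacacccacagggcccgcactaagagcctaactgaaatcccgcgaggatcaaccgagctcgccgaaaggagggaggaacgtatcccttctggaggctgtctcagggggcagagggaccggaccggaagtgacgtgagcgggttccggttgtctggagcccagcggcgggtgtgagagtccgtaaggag

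At 12 hours in HFM, 21 of the 42 autophagy genes were higher than in GM and 12 were lower (limma, Benjamini-Hochberg adjusted p under 0.05 over all genes, here termed called). These shares of 50% and 28.6% stand beside 28.9% higher and 33.0% lower among all 13130 genes, of which 61.9% were called. The median log2 change was 0.18 over the members and -0.07 over all genes. VMP1, TAX1BP1, EPG5, RB1CC1 and ULK2 rose by at least 1.5-fold without overlap between arrays, and ATG4B, WDR45, ATG101 and AMBRA1 fell as much. Of all genes, 9.83% rose and 4.40% fell by this rule.

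At 24 hours 14 members were higher in HFM and 16 lower, 33.3% and 38.1%, beside 20.6% and 37.5% of all genes (58.1% called). The medians were -0.03 and -0.08. The split followed the scaling: with each array centred on the median of its tested genes 22 members were higher and 10 lower. After a repeated quantile normalisation 19 were higher and 11 lower. The median of the members moved to 0.15 and 0.03, and that of all genes to 0.10 and 0.02. Shares of all genes, here and below, belong to the fit without these scalings and are no measure for scaled counts. VMP1, TMEM41B and EPG5 rose by at least 1.5-fold without overlap, and ATG5, ATG101, PIK3C3 and ATG4B fell as much. By this rule 7.02% of all genes rose and 15.0% fell. The 7 members kept their calls and directions under both scalings.

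**Figure D1:**
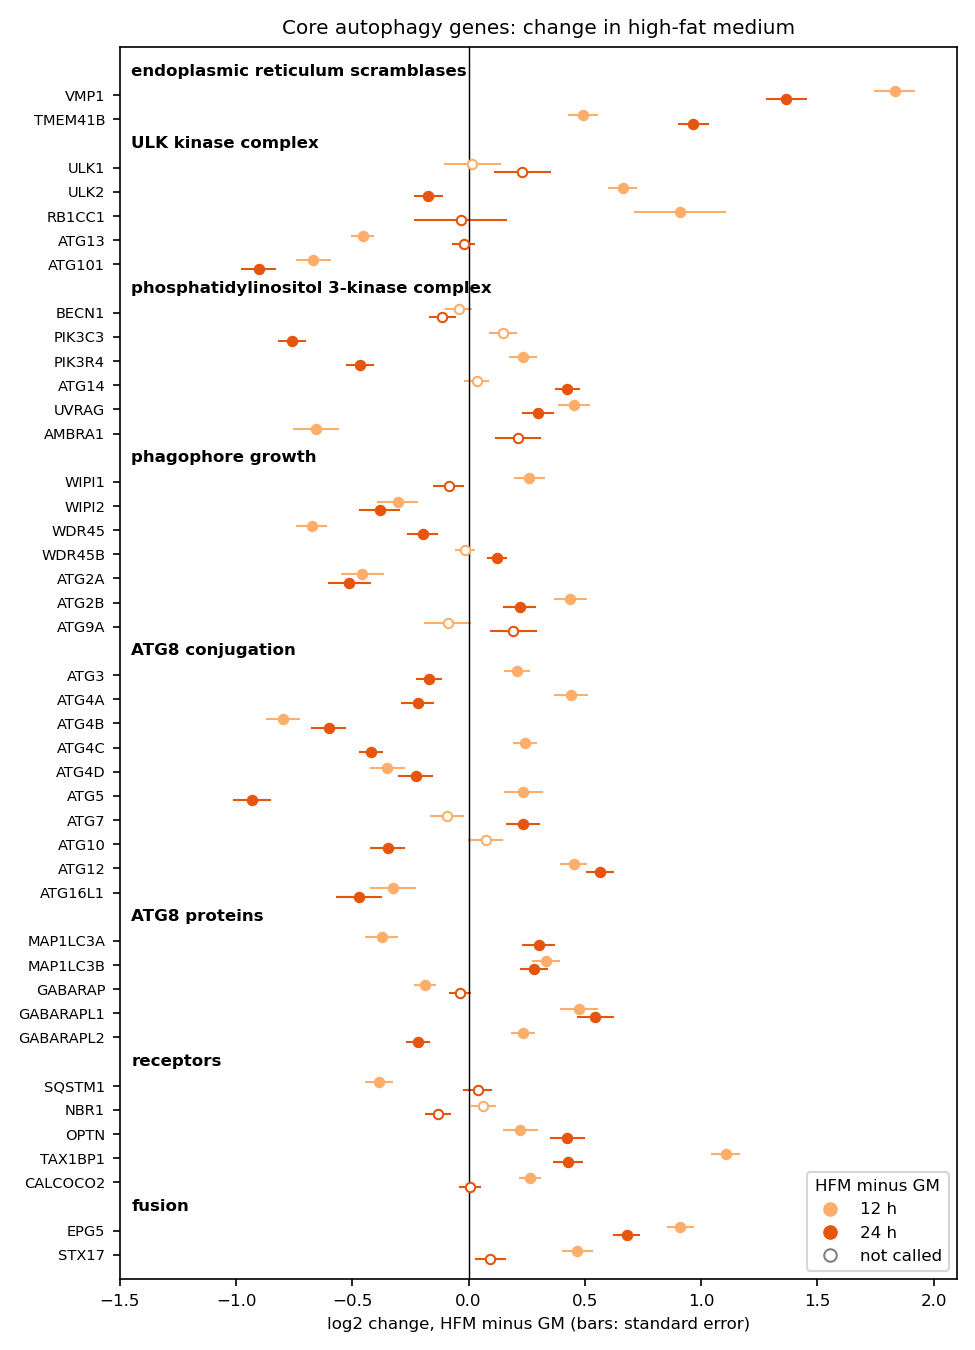
Log2 change in HFM against GM with its standard error (x axis) for each of the 42 members, grouped by role, at 12 hours (light) and 24 hours (dark), with open points for changes not called by limma. VMP1 lies farthest to the right at both times, at 1.83 and 1.37, and ATG5 farthest to the left at 24 hours, at -0.93.

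Over both times, 10 members were higher at 12 and at 24 hours (VMP1, TMEM41B, UVRAG, ATG2B, ATG12, MAP1LC3B, GABARAPL1, OPTN, TAX1BP1 and EPG5). Lower at both were 7 (ATG101, WIPI2, WDR45, ATG2A, ATG4B, ATG4D and ATG16L1). A further 8 were higher at one time and lower at the other (ULK2, PIK3R4, ATG3, ATG4A, ATG4C, ATG5, MAP1LC3A and GABARAPL2). Of these, ULK2, ATG3, ATG4A and GABARAPL2 were no longer called at 24 hours after centring, and the other 4 were called in opposite directions under both scalings. ULK1, BECN1, ATG9A and NBR1 were called at neither time.

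The scramblase VMP1, a membrane protein of the endoplasmic reticulum needed for phagophore formation, had levels of 5.34, 5.21 and 5.30 in GM and 7.32, 7.09 and 6.93 in HFM at 12 hours. The 24-hour levels were 7.05, 7.16 and 7.08 in GM and 8.57, 8.42 and 8.40 in HFM. HFM arrays lay above GM arrays at each time, and the HFM arrays at 12 hours overlapped those of GM at 24 hours. The change was 1.83 ± 0.09 (SE, adjusted p = 4.6e-08, 3.56-fold) at 12 hours and 1.37 ± 0.09 (adjusted p = 8.9e-08) at 24 hours. The related scramblase TMEM41B had 8.42, 8.34 and 8.37 in GM and 9.02, 8.83 and 8.76 in HFM at 12 hours, and 8.88, 8.83 and 8.85 against 9.89, 9.77 and 9.81 at 24 hours. It rose by 0.49 ± 0.07 (adjusted p = 6.5e-05) and 0.97 ± 0.07 (adjusted p = 1.5e-07), with HFM above GM on all arrays of each time. The effect of HFM was larger at 24 hours for TMEM41B, by 0.47 ± 0.09 (adjusted p = 0.0012), and smaller for VMP1, by -0.47 ± 0.12 (adjusted p = 0.0081).

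VMP1 shares its 3' end with the primary transcript of the microRNA MIR21, and 3 probe sets annotated to both symbols were assigned to no gene. Probe set 220990_s_at had 12-hour group means of 10.30 in GM and 10.88 in HFM, and 24-hour means of 11.06 and 11.86. It rose at both times, by 0.59 ± 0.05 and 0.80 ± 0.05 (adjusted p = 1.9e-06 and 6.1e-08), with a larger effect at 24 hours (by 0.21 ± 0.07, adjusted p = 0.027), where the VMP1 probe set had a smaller one. Probe set 224917_at had means of 9.42 and 11.12 at 12 hours, and 11.17 and 9.65 at 24 hours. It rose by 1.71 ± 0.05 at 12 hours and fell by 1.52 at 24 hours (SE 0.05, adjusted p = 1.7e-09 and 1.8e-10), and 231697_s_at changed by 1.09 and -1.14. At 24 hours the probe sets of this locus were therefore called in opposite directions.

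In the ULK kinase complex, the initiating kinase, 2 members rose and 2 fell at 12 hours (40% and 40%). At 24 hours none rose and 2 fell (0% and 40%), though with either scaling 2 rose and 1 fell. All counts by role are read beside 28.9% higher and 33.0% lower among all genes at 12 hours, and 20.6% and 37.5% at 24 hours. The kinase ULK1 had 5.90, 5.89 and 5.92 in GM and 6.23, 5.88 and 5.64 in HFM at 12 hours, and 5.67, 5.79 and 5.6 against 6.06, 5.84 and 5.85 at 24 hours. The wide HFM arrays at 12 hours enclosed the GM arrays. Its changes of 0.02 ± 0.12 and 0.23 ± 0.12 were not called (adjusted p = 0.92 and 0.13), but at 24 hours it was called higher after centring (0.41), after quantile normalisation (0.42) and without HFM 12-hour replicate 1 (0.23, adjusted p = 0.026). All groups share the same estimate of the spread. Leaving out a 12-hour array therefore alters the p-value of a 24-hour change, here and for the genes below, but not its size. At 12 hours the change of ULK1 was 0.33 with the control term, which rests on HFM replicate 1, and -0.14 without that array (adjusted p = 0.18). The related kinase ULK2 had 5.92, 5.94 and 5.76 in GM and 6.54, 6.55 and 6.52 in HFM at 12 hours, a rise of 0.66 ± 0.06 (adjusted p = 3.7e-06). At 24 hours it had 6.37, 6.54 and 6.48 in GM and 6.34, 6.28 and 6.24 in HFM, a change of -0.17 ± 0.06 (adjusted p = 0.03) that became 0.01 under both scalings. The 24-hour call was also lost without GM replicate 2 or 3 or HFM replicate 2 or 3, with changes of -0.17 to -0.14 and adjusted p of 0.072 to 0.12.

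RB1CC1, the large scaffold of the complex also known as FIP200, had 7.95, 7.98 and 7.86 in GM and 8.26, 9.07 and 9.19 in HFM at 12 hours. All HFM arrays lay above GM, and replicate 1 lay closest to it. The rise of 0.91 ± 0.20 (adjusted p = 0.002) was 1.2 without that array. With the control term, which sets that array alone against GM, it was 0.33 and not called. At 24 hours RB1CC1 had 9.35, 9.52 and 9.78 in GM and 9.35, 9.54 and 9.65 in HFM, which overlapped. ATG101, the partner that stabilises ATG13, had 9.97, 9.95 and 9.95 in GM and 9.49, 9.22 and 9.17 in HFM at 12 hours, and 9.31, 9.29 and 9.22 against 8.36, 8.35 and 8.41 at 24 hours. No arrays of the media overlapped at either time, and the falls were 0.67 (change -0.67 ± 0.07, adjusted p = 1.5e-05) and 0.90 (change -0.90 ± 0.07, adjusted p = 7.3e-07). ATG13, the regulatory subunit that ULK1 phosphorylates, fell by 0.46 at 12 hours and changed by -0.02 ± 0.05 at 24 hours (adjusted p = 0.75). The difference of these ATG13 effects was 0.43 ± 0.07 (adjusted p = 0.00028).

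In the phosphatidylinositol 3-kinase complex, 2 of 6 members rose and 1 fell at 12 hours (33.3% and 16.7%). At 24 hours 2 rose and 2 fell (33.3% and 33.3%). BECN1, the beclin subunit, had 9.30, 9.22 and 9.19 in GM and 9.08, 9.25 and 9.24 in HFM at 12 hours, which overlapped. At 24 hours it had 9.05, 9.05 and 9.13 in GM and 8.93, 8.96 and 8.99 in HFM, which did not overlap, but the change of -0.11 ± 0.06 was not called (adjusted p = 0.12). It was called without HFM 12-hour replicate 1 (adjusted p = 0.034), a change of the same size, and turned to 0.07 after centring. A second BECN1 probe set, 208945_s_at, rose by 0.17 at 12 hours and fell by 0.45 at 24 hours (adjusted p = 0.04 and 8.5e-05).

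PIK3C3, the lipid kinase itself, had 9.56, 9.51 and 9.42 in GM and 8.78, 8.74 and 8.68 in HFM at 24 hours. The change was -0.76 ± 0.06 (adjusted p = 6.1e-07), while at 12 hours 8.81, 8.84 and 8.82 in GM and 9.09, 8.96 and 8.87 in HFM gave 0.15 ± 0.06 (adjusted p = 0.053), which was called after centring and with the control term. The kinase subunit PIK3R4, its membrane-anchored partner, rose by 0.23 at 12 hours and fell by 0.47 at 24 hours. Both genes of the kinase core thus had a lower effect at 24 than at 12 hours, by -0.91 ± 0.09 and -0.70 ± 0.09 (adjusted p = 4.8e-06 and 3.2e-05). Of the subunits that define the complex, ATG14, which directs it to phagophores, changed by 0.03 ± 0.06 at 12 hours and rose by 0.42 ± 0.06 at 24 hours (adjusted p = 0.6 and 3.3e-05). UVRAG, which takes the place of ATG14 in the endosomal form, rose by 0.45 and 0.30. AMBRA1, a regulator of beclin and ULK1, had 7.5, 7.5 and 7.54 in GM and 6.63, 6.92 and 7.01 in HFM at 12 hours, without overlap. It fell by 0.66 at 12 hours (SE 0.10, adjusted p = 0.00015), and its 24-hour values of 6.99, 7.13 and 6.86 in GM and 7.08, 7.26 and 7.28 in HFM overlapped (0.21 ± 0.10, adjusted p = 0.085). That 24-hour difference was called higher after centring (0.39), after quantile normalisation (0.38) and without HFM 12-hour replicate 1 (adjusted p = 0.024).

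**Figure D2:**
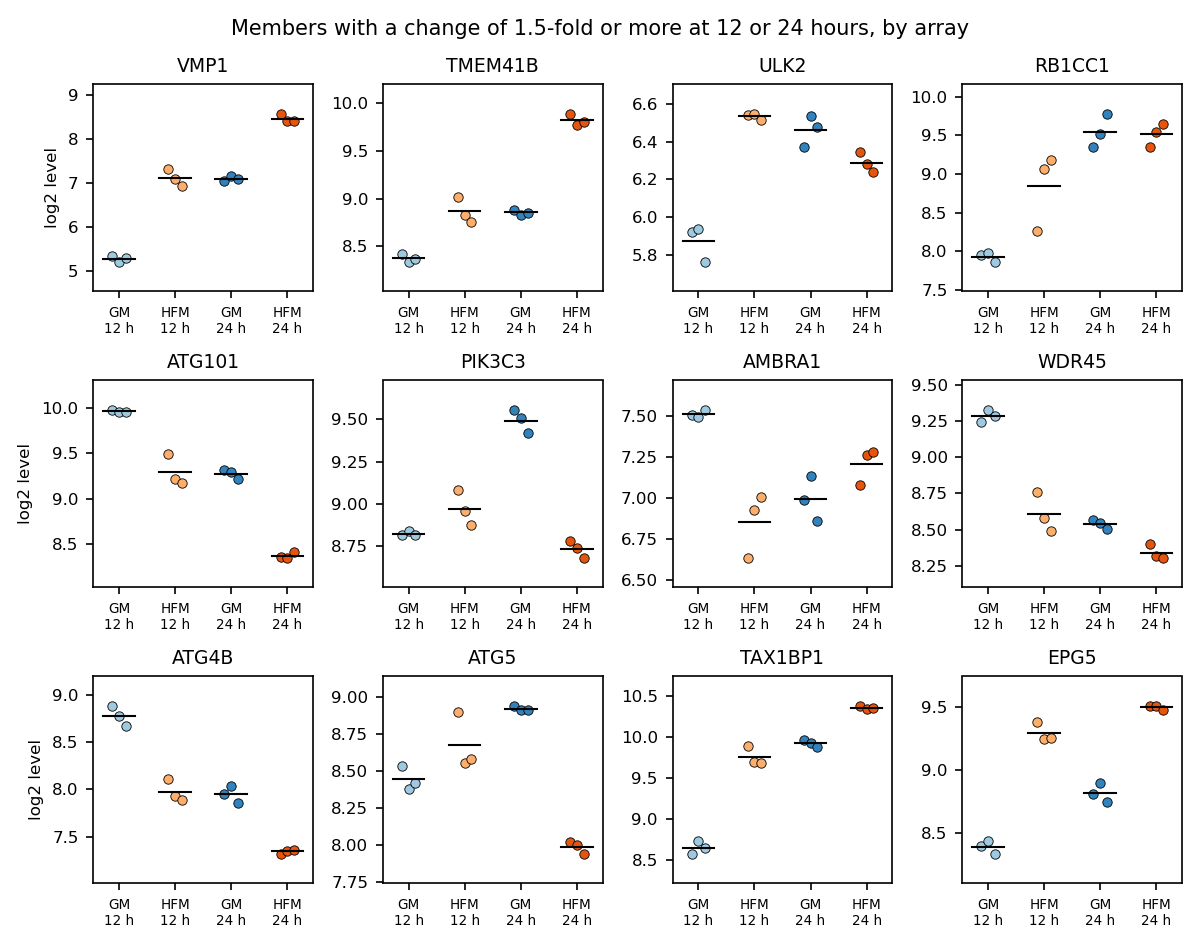
Log2 level (y axis, scaled for each gene) on every array of the 4 groups for the 12 members that changed by at least 1.5-fold without overlap at 12 or 24 hours, with the group mean as a line. VMP1, TMEM41B, TAX1BP1 and EPG5 were highest in HFM at 24 hours, ATG101 and ATG4B were lowest there, and the means of PIK3C3 and ATG5 were highest in GM at 24 hours.

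Among genes of phagophore growth, 2 of 7 rose and 3 fell at each time (28.6% and 42.9%). With either scaling 3 rose and 2 fell at 24 hours. WDR45, a lipid-binding WIPI protein, had 9.24, 9.33 and 9.29 in GM and 8.76, 8.58 and 8.49 in HFM at 12 hours, a fall of 0.68 without overlap (SE 0.07, adjusted p = 5.4e-06). At 24 hours, with 8.56, 8.54 and 8.5 in GM and 8.40, 8.32 and 8.30 in HFM, it changed by -0.20 ± 0.07 (adjusted p = 0.022). This second call was lost without GM replicate 1 or 2 or HFM replicate 2 or 3 (changes of -0.19 to -0.18, adjusted p 0.059 to 0.072), and the change was -0.02 after centring. WIPI2, which recruits the ATG16L1 complex, fell by 0.31 and 0.38, the first not called with the control term (-0.07). WIPI1 rose by 0.26 at 12 hours only, with a difference between times of -0.35 ± 0.10 (adjusted p = 0.0093, not called after centring). WDR45B changed by 0.12 ± 0.04 at 24 hours (adjusted p = 0.028), a call lost without GM replicate 1 or 2 or HFM replicate 1 or 3 (0.11 to 0.13, adjusted p 0.063 to 0.097).

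The paralogous lipid transfer proteins ATG2A and ATG2B moved in opposite directions. ATG2A changed by -0.46 ± 0.09 and -0.51 ± 0.09 (adjusted p = 0.0012 and 0.00044), and ATG2B by 0.44 ± 0.07 and 0.22 ± 0.07 (adjusted p = 0.00027 and 0.019). The ATG2B call at 24 hours was lost without GM replicate 1 (0.18, adjusted p = 0.081) or HFM replicate 1 (0.19, adjusted p = 0.068). The scramblase ATG9A changed by -0.09 ± 0.10 and 0.19 ± 0.10, neither called, and was called higher at 24 hours under both scalings (0.37 and 0.35) and without HFM 12-hour replicate 1 (adjusted p = 0.011).

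Of the 10 conjugation genes, 5 rose and 3 fell at 12 hours (50% and 30%, beside 28.9% and 33.0% of all genes). At 24 hours 2 rose and 8 fell (20% and 80%, beside 20.6% and 37.5%), with a median of -0.29. With either scaling the 24-hour count was 2 higher and 5 lower. ATG5, which is joined to ATG12 to form the conjugating complex, had 8.53, 8.38 and 8.42 in GM and 8.90, 8.55 and 8.58 in HFM at 12 hours, and 8.94, 8.91 and 8.91 against 8.03, 8.0 and 7.94 at 24 hours. HFM lay above GM at 12 hours and below it at 24 hours. The rise of 0.24 ± 0.08 (adjusted p = 0.028) was not called without GM replicate 2 (0.20, adjusted p = 0.094) or 3 (0.22, adjusted p = 0.073), whereas the change of -0.93 ± 0.08 at 24 hours (adjusted p = 1.4e-06) was called whichever array was left out. The difference between times was -1.17 ± 0.12 (adjusted p = 7.2e-06).

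Its partner ATG12 rose at both times, by 0.45 ± 0.06 and 0.57 ± 0.06 (adjusted p = 5.2e-05 and 5.4e-06). The ATG12 probe set of second highest mean was called at neither time (0.25 and 0.02, adjusted p = 0.051 and 0.9). ATG16L1, the third part of that complex, fell by 0.33 and 0.47. Its 12-hour call was lost without GM replicate 3 (-0.22, adjusted p = 0.061), without HFM replicate 3 (-0.24, adjusted p = 0.058) and with the control term (-0.17). ATG7, the enzyme that activates ATG8 and ATG12, changed by 0.23 ± 0.07 at 24 hours (adjusted p = 0.015), a call lost without GM replicate 3 (0.20, adjusted p = 0.063) or HFM replicate 1 (0.20, adjusted p = 0.058). The E2-like enzyme ATG3 had opposite calls of 0.21 and -0.17, and its 24-hour call was lost without GM replicate 2 or 3 or HFM replicate 1 (adjusted p 0.081 to 0.093) and with either scaling. With the control term, which rests on HFM replicate 1, neither its 12-hour rise (0.17) nor the 12-hour fall of ATG4D (-0.19) was called. ATG10, the E2-like enzyme for ATG12, fell by 0.35 at 24 hours (SE 0.07, adjusted p = 0.0015).

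ATG4 proteases cut ATG8 proteins before and after conjugation. The most active of them in cells, ATG4B, had 8.88, 8.77 and 8.67 in GM and 8.11, 7.93 and 7.89 in HFM at 12 hours, and 7.96, 8.03 and 7.86 against 7.32, 7.35 and 7.36 at 24 hours. It fell by 0.80 and 0.60 (SE 0.07, adjusted p = 3.5e-06 and 2.1e-05), with no overlap at either time, and all 3 ATG4B probe sets were called lower at both. ATG4C rose by 0.24 and then fell by 0.42, with a difference of -0.66 ± 0.07 (adjusted p = 1.5e-05), and ATG4A rose by 0.44 and then fell by 0.22. The ATG4A call at 24 hours was lost without GM replicate 1 (-0.20, adjusted p = 0.073) or HFM replicate 2 (-0.16, adjusted p = 0.098). ATG4D fell by 0.35 and 0.23, the latter not called without GM replicate 1 or 3 or HFM replicate 1 (adjusted p 0.055 to 0.077). With either scaling neither ATG4A nor ATG4D was called at 24 hours.

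Of the 5 ATG8 proteins, 3 rose and 2 fell at 12 hours (60% and 40%). At 24 hours 3 rose and 1 fell (60% and 20%), or 4 and 0 after centring. MAP1LC3B, the LC3 protein used as the standard marker of autophagosomes, had 9.53, 9.58 and 9.57 in GM and 10.04, 9.84 and 9.80 in HFM at 12 hours. At 24 hours it had 9.82, 9.82 and 9.79 in GM and 10.09, 10.10 and 10.09 in HFM. HFM lay above GM at both times, with rises of 0.33 ± 0.06 and 0.28 ± 0.06 (adjusted p = 0.00057 and 0.0016) that differed by -0.05 ± 0.08 (adjusted p = 0.63). GABARAPL1 rose by 0.47 ± 0.08 and 0.55 ± 0.08 (adjusted p = 0.00036 and 9.6e-05). A probe set annotated to GABARAPL1 and the related GABARAPL3, 211458_s_at, rose by 0.44 and 0.67. MAP1LC3A fell by 0.37 at 12 hours and rose by 0.30 at 24 hours, with a difference of 0.67 ± 0.10 (adjusted p = 0.00014), and all 3 of its probe sets were called lower and then higher. GABARAPL2 rose by 0.23 and fell by 0.22, the fall not called after centring (-0.04), and GABARAP changed by -0.19 ± 0.05 and -0.04 ± 0.05 (adjusted p = 0.0053 and 0.53).

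Among the 5 cargo receptors, 3 rose and 1 fell at 12 hours (60% and 20%). At 24 hours 2 rose and none fell (40% and 0%). SQSTM1, the ubiquitin-binding receptor p62 that is itself degraded by autophagy, had 9.69, 9.63 and 9.63 in GM and 9.41, 9.21 and 9.18 in HFM at 12 hours. All HFM arrays lay below GM, a change of -0.39 ± 0.06 (adjusted p = 0.00022). Of its 5 probe sets 3 were called lower at 12 hours, and the mean of all 5 was not called (-0.15, adjusted p = 0.10). At 24 hours the values of 9.08, 9.03 and 9.04 in GM and 9.13, 9.05 and 9.09 in HFM overlapped, and the change of 0.04 ± 0.06 was not called (adjusted p = 0.63), though it was 0.22 and called after centring. TAX1BP1, a receptor for ubiquitinated aggregates, had 8.57, 8.72 and 8.64 in GM and 9.88, 9.69 and 9.68 in HFM at 12 hours, and 9.96, 9.93 and 9.88 against 10.37, 10.33 and 10.34 at 24 hours. It rose by 1.11 ± 0.06 (adjusted p = 1.1e-07) and 0.43 ± 0.06 (adjusted p = 9.7e-05) with no overlap, and the effect was smaller at 24 hours by -0.68 ± 0.09 (adjusted p = 5.9e-05).

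OPTN, a receptor for mitochondria and bacteria, changed by 0.22 ± 0.08 and 0.42 ± 0.08 (adjusted p = 0.024 and 0.00041). Its 12-hour call was lost without any single GM array of that time (0.22 to 0.23, adjusted p 0.051 to 0.059) and after quantile normalisation. CALCOCO2, the receptor NDP52, rose by 0.26 at 12 hours and changed by 0.01 ± 0.05 at 24 hours, and was called higher at 24 hours after centring (0.19). NBR1, which helps SQSTM1 gather cargo, changed by 0.06 ± 0.05 and -0.13 ± 0.05 (adjusted p = 0.33 and 0.056), and was called lower at 24 hours without HFM 12-hour replicate 1 (adjusted p = 0.0082).

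Both fusion genes rose at 12 hours. EPG5, a tether between autophagosome and lysosome, had 8.39, 8.43 and 8.33 in GM and 9.38, 9.25 and 9.26 in HFM at 12 hours, and 8.81, 8.90 and 8.74 against 9.51, 9.51 and 9.47 at 24 hours. It rose by 0.91 ± 0.06 (adjusted p = 2.1e-07) and 0.68 ± 0.06 (adjusted p = 8.3e-07) without overlap, and its 7 probe sets gave 6 calls higher at 12 hours and 7 at 24 hours. STX17, the syntaxin of the finished autophagosome, rose by 0.47 ± 0.07 at 12 hours (adjusted p = 0.00011). At 24 hours its change of 0.09 ± 0.07 was not called, but it was with either scaling (0.27 and 0.29).

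Initiation (the ULK and phosphatidylinositol 3-kinase complexes, 11 genes), lipidation (conjugation and ATG8 proteins, 15 genes) and receptors (5 genes) were then set beside each other over the 4 groups. At 12 hours 4 initiation genes rose and 3 fell, against 8 and 5 of lipidation and 3 and 1 of the receptors, with median changes of 0.03, 0.21 and 0.22. As shares these were 36.4% and 27.3% of initiation, 53.3% and 33.3% of lipidation and 60% and 20% of receptors, beside 28.9% and 33.0% of all genes. At 24 hours the counts were 2 and 4, 5 and 9, and 2 and 0, with medians of -0.03, -0.22 and 0.04, or 18.2% and 36.4%, 33.3% and 60%, and 40% and 0%, beside 20.6% and 37.5% of all genes. After centring the 24-hour counts were 5 and 3 for initiation, 6 and 5 for lipidation and 4 and 0 for receptors, and after quantile normalisation 5 and 3, 5 and 6, and 2 and 0. The median of initiation turned to 0.14 and 0.01 under these scalings, whereas that of lipidation stayed below 0 at -0.04 and -0.10. Within each class genes moved both ways at 12 hours, and the difference between classes was not tested.

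**Figure D3:**
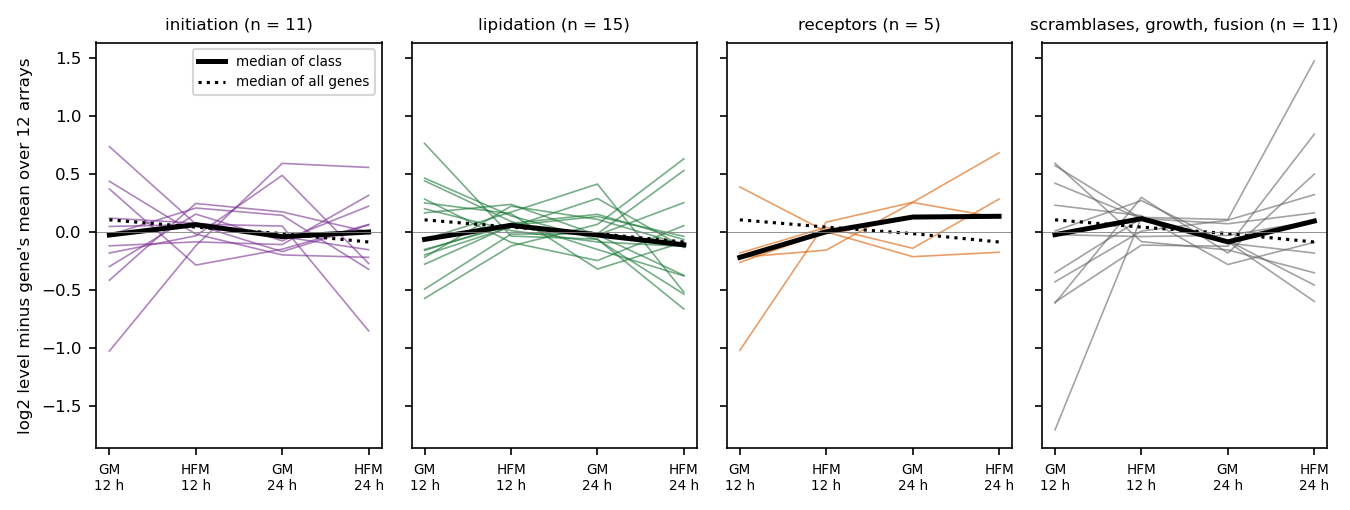
Group mean of each gene minus its mean over the 12 arrays (y axis, log2) in the 4 groups, with the class median as a thick line and the median of all genes tested as a dotted line. The median of the receptors went from -0.22 in GM at 12 hours to 0.13 in HFM at 24 hours, and that of all genes from 0.10 to -0.09.

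The HFM effect itself differed between times for 24 of the 42 members, 8 with a higher and 16 with a lower effect at 24 hours. Among all genes 52.8% were called, 19.4% with a higher and 33.4% with a lower effect. After centring the members split 17 and 9, and after quantile normalisation 15 and 14, while the median of all genes moved from -0.04 to 0.16 and 0.06. ATG5 had the lowest difference (-1.17) and AMBRA1 the highest (0.87 ± 0.14, adjusted p = 0.00027). ATG5, PIK3C3, ULK2, PIK3R4, ATG4A, ATG4C, TAX1BP1, VMP1 and GABARAPL2 kept their negative difference and call under both scalings. AMBRA1, MAP1LC3A, TMEM41B, SQSTM1, WDR45, ATG13, ATG14 and ATG7 kept their positive one.

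From 12 to 24 hours in GM alone, 21 members rose and 16 fell, where 29.4% of all genes rose and 40.5% fell (69.9% called). In HFM 15 rose and 21 fell, beside 20.1% and 43.1% of all genes (63.1% called). After centring 18 rose and 10 fell, while the median of all genes moved from -0.12 to 0.10. The GM comparison shares the GM arrays at 12 hours with the medium comparison at that time, so their values are given side by side only. VMP1 changed by 1.81 ± 0.09 in GM over time and 1.83 with HFM at 12 hours, RB1CC1 by 1.62 ± 0.20 and 0.91, TAX1BP1 by 1.28 ± 0.06 and 1.11, ATG4B by -0.82 ± 0.07 and -0.80, and ATG101 by -0.69 ± 0.07 and -0.67. EPG5 changed by 0.43 ± 0.06 and 0.91. WIPI1 changed by -0.11 ± 0.07 (adjusted p = 0.18) and 0.26. PIK3C3 rose in GM over time, by 0.67 ± 0.06, and fell by 0.24 in HFM.

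The members had 113 probe sets annotated to their symbol alone, of which 96 passed the floor, and 27 genes had more than 1 that passed. Probe sets were tested among all 24649 that passed. No member had probe sets called in opposite directions at 12 hours, and 3 did at 24 hours: ATG5, ATG7 and PIK3C3. For ATG5, 202511_s_at (-0.93) and 210639_s_at fell, the latter from 7.10, 6.99 and 7.05 in GM to 5.94, 6.22 and 6.12 in HFM. The third ATG5 probe set, 202512_s_at, rose from 6.95, 6.92 and 6.85 to 7.34, 7.45 and 7.43 (0.50 ± 0.06, adjusted p = 2.6e-05), and it had also risen at 12 hours, by 1.26 ± 0.06. The fall of ATG5 at 24 hours therefore holds for 2 of its 3 probe sets.

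For PIK3C3, 229705_at fell from 5.54, 5.43 and 5.84 to 3.72, 4.15 and 4.04 and 239300_at from 5.36, 5.23 and 5.37 to 4.18, 4.03 and 4.35, like the chosen 204297_at. Both had risen at 12 hours, by 0.55 and 0.57. The fourth, 215394_at, rose from 3.69, 3.83 and 3.70 to 4.49, 4.54 and 4.47 (0.76 ± 0.12, adjusted p = 0.00013), close to the floor. For ATG7, the chosen 224025_s_at had 7.56, 7.5 and 7.42 in GM and 7.78, 7.70 and 7.70 in HFM, and 218673_s_at had 7.14, 7.07 and 7.15 and 7.43, 7.33 and 7.47. Probe set 222709_at fell from 6.12, 6.0 and 5.77 to 5.67, 5.6 and 5.58, and 1569827_at rose from 4.88, 5.03 and 4.89 to 6.74, 6.81 and 6.71 (1.82 ± 0.16, adjusted p = 1.3e-06). The direction of ATG7 thus depended on the probe set. With the probe sets of each gene averaged, PIK3R4, ATG2B, ATG3, ATG16L1 and SQSTM1 were no longer called at 12 hours, nor ATG2B and ATG16L1 at 24 hours. With the probe set of second highest mean, ATG2B, ATG3, ATG12 and OPTN were not called at 12 hours, nor ULK2, WDR45B, ATG2B and ATG12 at 24 hours.

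Some probe sets that were not chosen changed far more than the chosen one, and those named here were singled out after their values were seen. SQSTM1 probe set 244804_at rose from 5.82, 5.78 and 5.76 in GM to 8.61, 8.39 and 8.46 in HFM at 24 hours, 2.70 ± 0.08 (adjusted p = 1.4e-10), where the chosen probe set changed by 0.04. EPG5 probe set 232030_at rose from 5.32, 5.35 and 5.10 to 8.11, 8.06 and 8.12 (2.84 ± 0.10, adjusted p = 5.4e-10). NBR1 probe set 1568857_a_at and CALCOCO2 probe set 238560_at rose by 0.94 ± 0.11 and 0.90 ± 0.06, while the chosen probe sets of these genes were not called. What part of each transcript these probe sets cover was not analysed here.

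**Figure D4:**
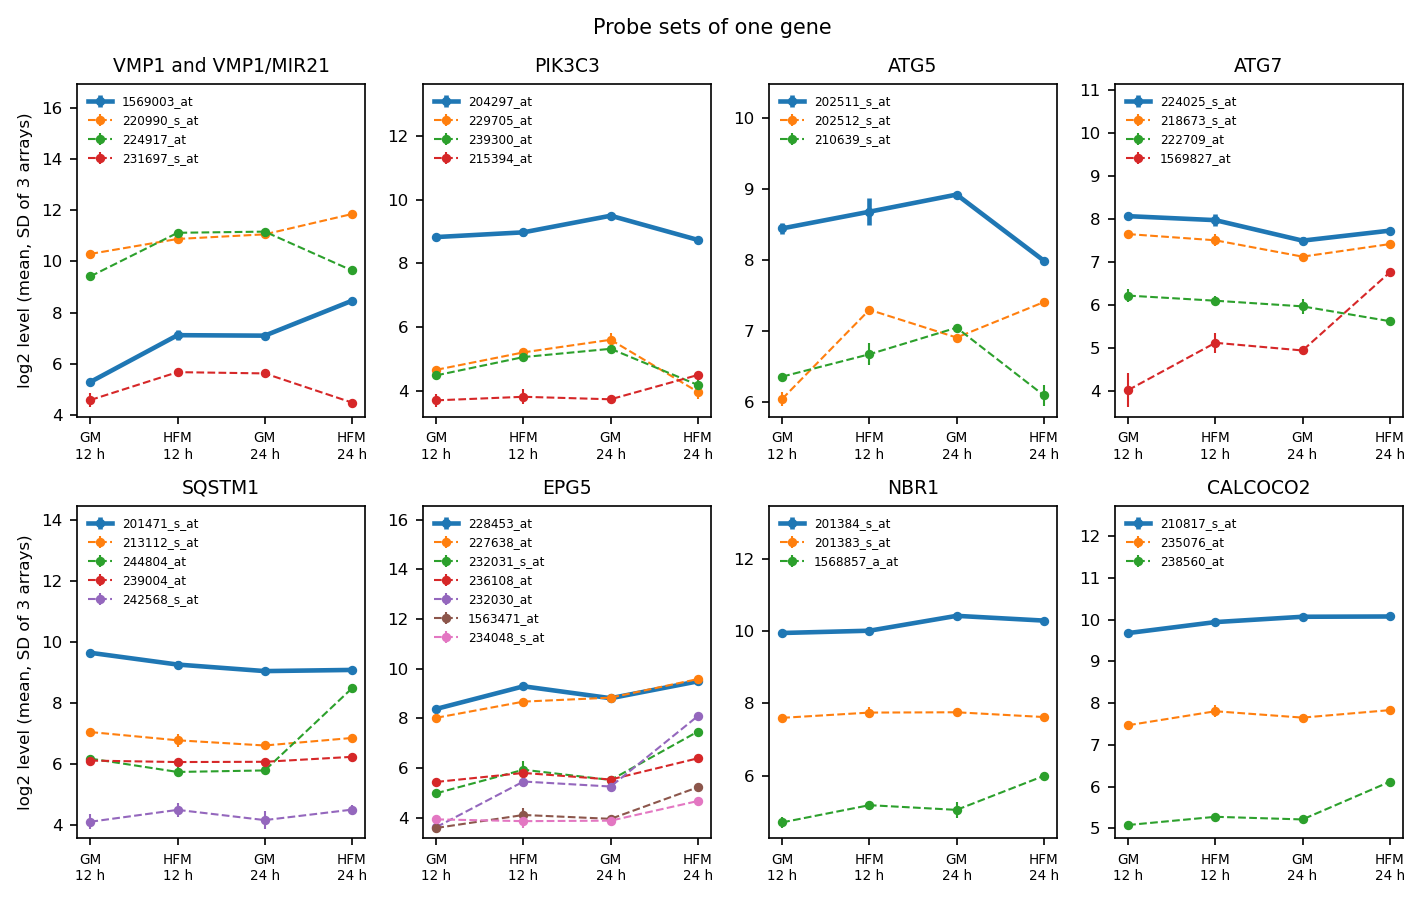
Mean log2 level with SD over 3 arrays (y axis) in the 4 groups for each tested probe set of 7 members and for the probe sets of VMP1 and of VMP1 with MIR21, with the chosen probe set as a thick line. SQSTM1 244804_at went from 5.79 in GM to 8.49 in HFM at 24 hours while the chosen SQSTM1 probe set lay at 9.05 and 9.09.

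Other genes of the pathway were counted from lists that hold none of the members. Of 13 upstream kinase genes and their regulators, 5 rose and 7 fell at 12 hours and 2 rose and 7 fell at 24 hours (medians -0.24 and -0.22). These were 38.5% and 53.8%, then 15.4% and 53.8%, beside 28.9% higher and 33.0% lower among all genes at 12 hours and 20.6% and 37.5% at 24 hours, the shares to read the next lists against. With the control term, which rests on HFM replicate 1, the 12-hour median was -0.08. After centring the 24-hour count was 2 and 4. For centred counts of these lists no share of all genes is given. PRKAB2, a subunit of the energy sensor AMPK, rose by 0.95 ± 0.05 and 1.4 ± 0.05 (adjusted p = 6.8e-08 and 9.6e-10). The mTORC1 subunit MLST8 fell most at 12 hours, by 0.60, and the mTORC1 subunit RPTOR at 24 hours, by 0.71 (SE 0.13, adjusted p = 0.00043).

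Of 14 further genes of autophagosome fusion, none rose and 9 fell at 12 hours, and 3 rose and 8 fell at 24 hours (medians -0.38 and -0.30), which is 0% and 64.3%, then 21.4% and 57.1%. After centring 1 rose and 10 fell at 12 hours, and 4 rose and 6 fell at 24 hours. With the control term the 12-hour median was -0.15. VPS18, a core subunit of the HOPS tether, fell most at both times, by 0.69 and 0.92, and VPS39 of the same tether rose by 0.29 at 24 hours.

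Of 15 tested organelle and cargo receptors outside the members, 6 rose and 6 fell at 12 hours and 4 rose and 6 fell at 24 hours, or 7 and 5 after centring (medians -0.06 and -0.13). The shares were 40% and 40%, then 26.7% and 40%. The mitophagy receptor BNIP3L rose most at 12 hours, by 0.79 ± 0.05, and its paralogue BNIP3 at 24 hours, by 0.87 ± 0.06 (adjusted p = 1.2e-07). TEX264 and RETREG1, receptors for the endoplasmic reticulum, fell most, by 0.56 at 12 hours and 0.81 at 24 hours. Of 12 tested accessory factors 6 rose and 1 fell at 12 hours, and 6 rose and 2 fell at 24 hours (medians 0.41 and 0.21), which is 50% and 8.33%, then 50% and 16.7%. C9orf72, part of a complex that acts with ULK1, rose most at 12 hours, by 1.34 ± 0.11 (adjusted p = 1.5e-06), and TP53INP1, a p53 target that binds ATG8 proteins, at 24 hours, by 1.30 ± 0.06 (adjusted p = 5.7e-09). RAB1B and NRBF2 fell most, by 0.35 and 0.39.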

How the data were processed

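Total RNA of Sk-hep1 cells was measured on 12 Affymetrix human arrays, 3 for each medium and time. The authors normalised the arrays with GCRMA according to the submitters' processing notes, which give no version, and deposited log2 values. Of 54675 probe sets, the platform annotation gives 41097 a single symbol, 1801 several and 11777 no symbol. From the deposited log2 values, 4 group means were fitted with limma 3.58.1 in R 4.3.3 (lmFit, eBayes) over 13130 genes, and p-values were adjusted over all of them with the Benjamini-Hochberg method. The members, roles, lists and named genes were chosen with earlier results of these data known. Values on every array were given for members called with at least 1.5-fold change and no overlap, for members with opposite probe set calls, and for SQSTM1, MAP1LC3B, ULK1 and BECN1. Of each list the largest called rise and fall were named. A probe set was not checked against transcript models. Alternatives changed the floor, the probe set, the scaling, the variance model, the arrays fitted, a replicate block and a term for the hybridisation control class. The number of arrays limits the precision. The script was tested on simulated data. Plots used matplotlib 3.10.9 (Python 3.11.15).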

Additional observations from a re-analysis of the deposited data

Results flagged for a closer look

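The effect of HFM differed between 24 and 12 hours in the interaction test of limma (adjusted p under 0.05) for 24 members, given here as the 24-hour change minus the 12-hour change in log2. Negative differences were found for ATG5 (-1.17), RB1CC1 (-0.94), PIK3C3 (-0.91), ULK2 (-0.84), PIK3R4 (-0.70), TAX1BP1 (-0.68), ATG4C (-0.66), ATG4A (-0.66), VMP1 (-0.47), GABARAPL2 (-0.45), ATG10 (-0.42), ATG3 (-0.38), STX17 (-0.37), WIPI1 (-0.35), CALCOCO2 (-0.26) and EPG5 (-0.23). Positive differences were found for AMBRA1 (0.87), MAP1LC3A (0.67), WDR45 (0.48), TMEM41B (0.47), ATG13 (0.43), SQSTM1 (0.42), ATG14 (0.39) and ATG7 (0.33). After centring, RB1CC1, WIPI1, ATG3, ATG10, CALCOCO2, EPG5 and STX17 were not called. With the probe sets of each gene averaged CALCOCO2 and EPG5 were called in the opposite direction. With the probe set of second highest mean ATG13, CALCOCO2 and EPG5 were not called, nor were ULK2, ATG7, TAX1BP1 and CALCOCO2 without the types that can cross-hybridise. EPG5 was also not called without the floor or on leaving out any of 7 of the 12 arrays, and RB1CC1 and ATG7 were not called with the control term.

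Among probe sets assigned to no gene, 220990_s_at, annotated to VMP1 and MIR21, was higher in HFM at 24 hours by 0.80, and 211458_s_at, annotated to GABARAPL1 and GABARAPL3, by 0.67. The other two annotated to VMP1 and MIR21, 224917_at and 231697_s_at, were lower there, by -1.52 and -1.14.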

How the results depend on the processing

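The numbers of called members were 33 at 12 hours, 30 at 24 hours, 24 for the difference between times, 37 over time in GM and 36 over time in HFM. Of all genes 61.9%, 58.1%, 52.8%, 69.9% and 63.1% were called. Leaving out each array in turn gave 30 to 36, 25 to 35, 23 to 31, 33 to 38 and 32 to 36 calls. With a minimum of 1.5-fold the counts were 9, 7, 10, 13 and 11. Of all genes 9.83% rose and 4.40% fell by this size without overlap at 12 hours, and 7.02% and 15.0% at 24 hours. For the other comparisons no such share is given, and their counts cannot be read as particular to the members. Without probe sets of the types that can cross-hybridise, only 30 members could be tested, and 21 were called at 12 hours and 22 over time in HFM. In that setting ULK2, ATG3 and OPTN lost their 12-hour calls and ULK2 its 24-hour call, and ATG7 was called lower at 24 hours. For the difference between times, ULK2, ATG7, TAX1BP1 and CALCOCO2 lost their calls. With a replicate block 34, 30, 24, 36 and 36 were called. Deviations of arrays with the same replicate number correlated at -0.17 to 0.42, and 7 of 18 such pairs exceeded 0.1. For different numbers the range was -0.49 to 0.44, and 9 of 36 pairs exceeded 0.1. Whether the numbers pair the arrays was not tested further.

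Some changes turned sign, among them the called fall of ATG5 at 24 hours, which turned where another probe set was read. Why the ATG5 probe sets differ was not tested. Centring shifts the changes of all genes in a comparison by the same amount. After centring, ULK1 at 12 hours was -0.0081, and at 24 hours BECN1 was 0.0665, ULK2 0.0056 and RB1CC1 0.14. After quantile normalisation ULK2 and RB1CC1 at 24 hours were 0.0057 and 0.0079. With the probe set of second highest mean BECN1 at 12 hours was 0.17, and at 24 hours ULK2 was 0.0278 and ATG5 0.50. Leaving out single arrays, the change of ULK1 at 12 hours ranged from -0.14 to 0.16, that of BECN1 at 12 hours from -0.0702 to 0.0103 and that of RB1CC1 at 24 hours from -0.13 to 0.0787.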
